A study of Arabidopsis thaliana with 2 samples.

Results

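The nucleolar ribosome biogenesis factors of Arabidopsis thaliana described here are 35 nuclear genes, taken by locus identifier by a rule that uses no measured value. The set was nevertheless chosen with earlier results of these data known. All 35 were found among the 33602 loci of the deposited expression table. They comprise 2 nucleolins, 6 box C/D proteins, 3 box H/ACA proteins, 7 factors for the small ribosomal subunit, 11 for the large subunit, 5 nucleases or partners of pre-rRNA processing and 1 RNA helicase. The study sequenced total RNA from the main stem of hdt1 mutant plants and of wild-type plants to find genes whose expression differs between them during stem development. Each genotype is represented by 1 library from mature stem collected 35 days after flowering, and all plants grew at 20 °C with 16 h of light and 8 h of dark. The labels do not give the hdt1 allele, the ecotype or the number of plants per library. With 1 library each, differences between the genotypes could not be checked against replicates, and no test was made.

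Ribosomes are built in the nucleolus, where RNA polymerase I transcribes a long pre-rRNA that is cut, chemically modified and folded onto ribosomal proteins. Box C/D and box H/ACA small nucleolar ribonucleoproteins carry guide RNAs that direct ribose methylation and pseudouridylation. Separate sets of assembly factors accompany the precursors of the small and the large subunit, some of them into the cytoplasm. HDT1 belongs to the plant-specific HD2 family of histone deacetylases, which are themselves located in the nucleolus.

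HDT1, the gene named in the mutant's label, was at 52.6 FPKM (the unit of level used here, per length of gene and per depth of library) in wild type and at 5.19 FPKM in hdt1. It was 10.2-fold lower in hdt1 (8.42 to 12.3). Brackets after a fold give an exact (Clopper-Pearson) 95% interval on read numbers recovered from the FPKM steps, and it covers counting error in these 2 libraries only. AT3G44740 overlaps HDT1 by 315 bases on the opposite strand. The libraries held 21728500 (wild type) and 23070249 (hdt1) counted reads or read pairs, and 3 reads in a gene of 1000 bases correspond to 0.138 and 0.130 FPKM. All 5 secondary-wall genes used as stem markers (CESA4, CESA7, CESA8, NST3 and FLA11) were detected in both libraries and were higher in hdt1, with summed levels of 61.6 FPKM in wild type and 153 FPKM in hdt1. Of 6 genes of dividing cells 5 were higher and 1 was lower in hdt1 (sums of 21.0 and 24.9 FPKM). Only 3 of them reached a mean of 1 FPKM, namely KN at 1.47 and 3.42 FPKM, CDKB2;1 at 1.96 and 3.47 FPKM, and HIS4 at 16.3 and 15.1 FPKM. CYCB1;1, CDKB1;1 and PCNA1 rest on 9 to 33 reads per library, and the intervals of CYCB1;1 and HIS4 included 1. Flower organ genes summed to 0.444 and 0.146 FPKM, and the 3 seed storage genes were at 0 in both libraries. The part of these marker differences in the values below was not tested.

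The nucleolar factors were mostly somewhat lower in the hdt1 library, and NUC2 alone had an FPKM ratio past 2-fold, a limit it no longer passed with equal FPKM sums (hdt1 over wild type 0.5002). Their summed level was 1714 FPKM in wild type and 1455 FPKM in hdt1, 1.18-fold lower. Of the 35 genes 34 reached a mean level of 1 FPKM and were compared on the log2 ratio of hdt1 over wild type after adding 1 FPKM to each value, which makes the differences of weakly expressed genes look smaller. The gene below that limit was BRX1-1. Among the 34, 28 (82.4%) had a log2 ratio below 0, against 54.0% of all 17811 loci compared in the same way. Of the 34, 11 (32.4%) were at least 1.2-fold lower on this scale, against 18.7% of all loci. None of the 34 was at least 1.2-fold higher, against 18.5% of all loci. With 1 FPKM added none was past 2-fold in either direction, a limit that 3.06% of all loci passed. The median log2 ratio of the 34 genes was -0.15, with quartiles of -0.30 and -0.05 and a range from -0.86 to 0.10, and the median of all loci was -0.03. With 1 library per genotype these counts describe a pair of libraries, and in bulk RNA fewer cells of a type and less RNA per cell cannot be told apart.

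**Figure D1:**
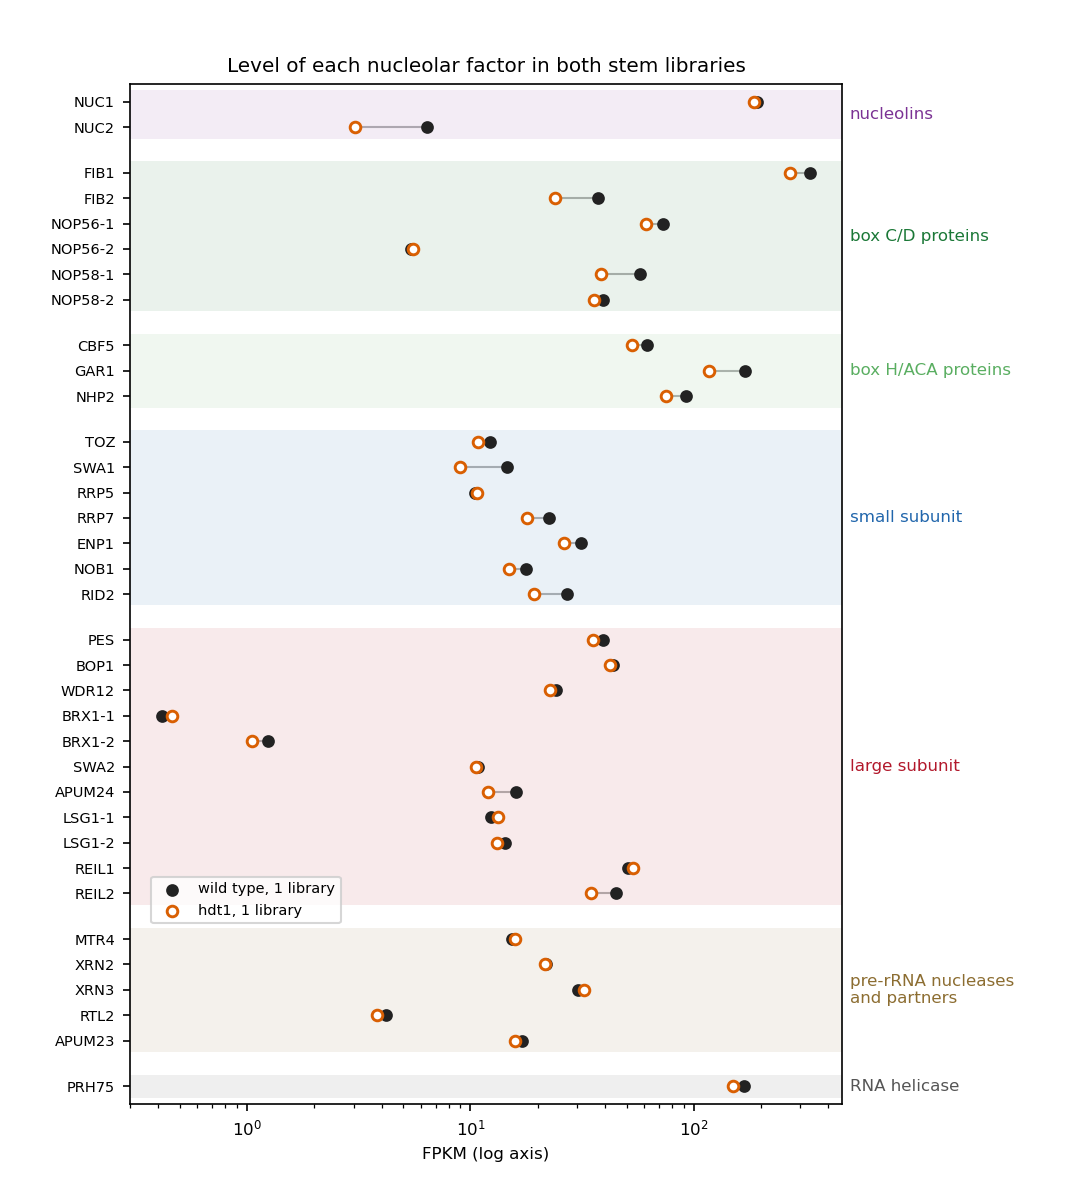
Level of each of the 35 genes in FPKM (log axis) in the wild-type library (filled points) and the hdt1 library (open points), 1 library each, grouped by role. Levels run from 0.416 FPKM for BRX1-1 to 331 FPKM for FIB1 in wild type, and the open point lies to the left of the filled point for 28 of the 35 genes.

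The counting interval of the fold was wholly below 1 for 20 of the 34 genes (58.8%), against 29.1% of all loci. It was wholly above 1 for XRN3 alone, 1 of 34, against 24.9% of all loci. For the other 13 compared genes it included 1. These interval counts and shares hold for the values as deposited, were not repeated under other scalings, and would shift where a limit lies near 1. The scale between the libraries matters for the smallest differences. With the FPKM sums of the libraries made equal, which moves every log2 ratio up by about 0.06, 24 of the 34 genes were below 0 and 8 were at least 1.2-fold lower, while NUC1, BOP1, SWA2 and XRN2 moved to the other side of 0. Under the same scaling 46.0% of all loci were below 0, and 13.8% were at least 1.2-fold lower and 22.6% at least 1.2-fold higher, compared with 18.7% and 18.5% on the values as deposited.

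**Figure D2:**
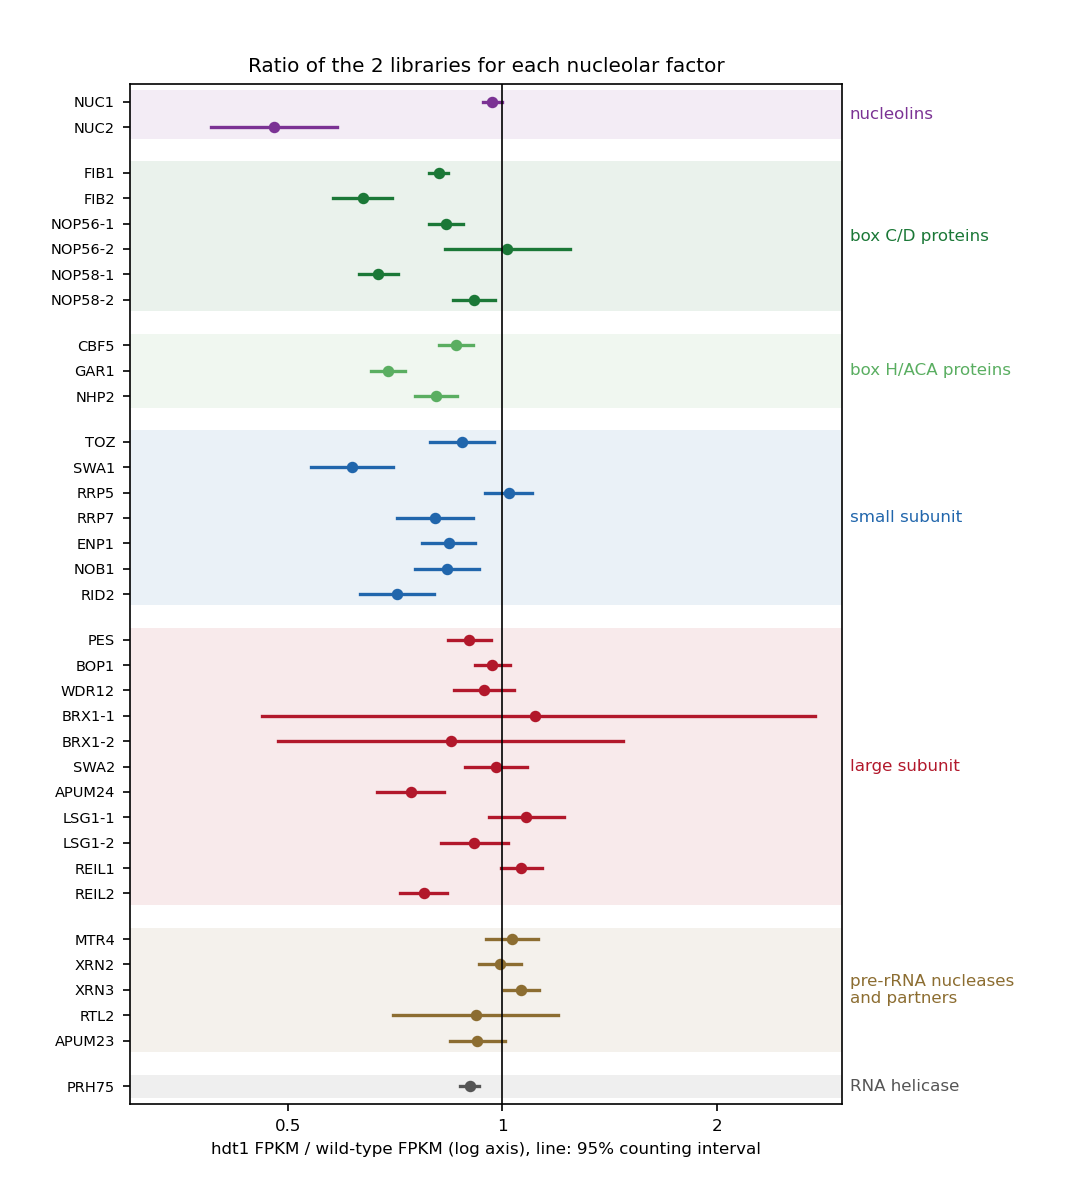
Level in hdt1 over level in wild type for each gene, both in FPKM (points, log axis) with its 95% counting interval (lines), and the vertical line marks a ratio of 1. NUC2 lies lowest at 0.479, and the wide lines of BRX1-1 and BRX1-2 rest on 11 to 30 reads per library.

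Nucleolins are RNA-binding proteins of the nucleolus that act on rRNA gene chromatin and on early pre-rRNA processing. Arabidopsis has a pair of them, and NUC1 is known as the predominant copy. NUC1 (AT1G48920) was at 193 FPKM in wild type and 186 FPKM in hdt1, which were 8227 and 8457 reads. It was 1.03-fold lower in hdt1 (1.002 to 1.06), the smallest difference among the 4 genes whose mean level reached 100 FPKM. NUC2 (AT3G18610) was at 6.38 FPKM in wild type and 3.06 FPKM in hdt1, from 291 and 148 reads. It was 2.09-fold lower (1.71 to 2.56), with a log2 ratio of -0.86 after adding 1 FPKM that ranked 206 from the lowest among the 17811 loci. NUC2 thus had the lowest ratio of all 35 genes, while NUC1 was nearly level between the libraries. The share of NUC2 in the summed FPKM of the pair was 3.21% in wild type and 1.61% in hdt1. As hdt1 over wild type, the ratio of NUC1 (0.968) was 2.02 times the ratio of NUC2 (0.479), with an interval of 1.65 to 2.49, so the copies differed beyond counting error. Their coding sequences are 70.5% identical and share no stretch of 50 bases.

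The 250 bases before the annotated starts of the nucleolin genes are printed because the copies differ both in level and in ratio. Coordinates and letters are those of the RefSeq annotation of TAIR10.1, since no source used here names the build behind the deposited values. Each is written 5′ to 3′ on the strand of its gene, NUC1 at chr1:18097831-18098080 (plus strand) and NUC2 at chr3:6407947-6408196 (minus strand). Capitals mark the telo box AAACCCTA or site II letters. Site II was searched as TGGGCC or, with a final T, as TGGGCT. Both strands were searched for both motifs, a reverse complement is capitalised as well, and site II matches on opposite strands may overlap.
NUC1: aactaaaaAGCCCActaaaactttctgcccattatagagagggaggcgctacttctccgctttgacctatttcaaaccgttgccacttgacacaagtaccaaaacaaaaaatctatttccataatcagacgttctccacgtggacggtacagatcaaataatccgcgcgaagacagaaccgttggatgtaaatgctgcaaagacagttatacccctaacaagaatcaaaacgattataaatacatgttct
NUC2: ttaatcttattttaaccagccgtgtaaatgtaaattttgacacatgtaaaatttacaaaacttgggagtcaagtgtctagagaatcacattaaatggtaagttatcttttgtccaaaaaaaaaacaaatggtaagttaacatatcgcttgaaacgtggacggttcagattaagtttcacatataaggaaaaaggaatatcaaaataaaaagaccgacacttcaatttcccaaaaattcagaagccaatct
The NUC1 stretch holds 1 site II match that starts 242 bases before the start, and the NUC2 stretch holds no match. In the 50 bases after the start NUC1 has telo boxes at positions 2 and 38, and NUC2 has 1 at position 43. A match describes the letters and shows no binding.

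The box C/D proteins were lower together except for a weakly expressed NOP56 copy. Their summed level was 543 FPKM in wild type and 434 FPKM in hdt1, 1.25-fold lower. Of the 6 genes 5 were below 0, against 54.0% of all loci, and 3 were at least 1.2-fold lower, against 18.7%. The median log2 ratio was -0.28. Fibrillarin is the methyltransferase of these particles. FIB1 (AT5G52470), the most abundant of the 35 genes, was at 331 FPKM in wild type and 269.6 FPKM in hdt1, 1.23-fold lower (1.19 to 1.27). FIB2 (AT4G25630) was at 37.4 and 23.8 FPKM, 1.57-fold lower (1.43 to 1.73), with a log2 ratio of -0.63. FIB1 and FIB2 together gave 21.5% of the summed level of all 35 genes in wild type. FIB2 was lower by the larger factor, and its share of the pair was 10.1% in wild type and 8.11% in hdt1. As hdt1 over wild type, the ratio of FIB1 (0.814) was 1.28 times the ratio of FIB2 (0.637), with an interval of 1.16 to 1.42, and the coding sequences of the pair are 84.8% identical.

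The upstream stretches of the fibrillarin pair show the same contrast of letters as the nucleolins, with matches in the abundant copy and none in the other. Among the other pairs described below only XRN2 and XRN3 show it, and in the REIL pair the matches are in the copy with the lower level. Both copies hold matches in the NOP56, NOP58 and BRX1 pairs, and neither does in the LSG1 pair. FIB1 lies at chr5:21293897-21294146 and FIB2 at chr4:13073840-13074089, both on the plus strand of TAIR10.1, and capitals have the meaning given above.
FIB1: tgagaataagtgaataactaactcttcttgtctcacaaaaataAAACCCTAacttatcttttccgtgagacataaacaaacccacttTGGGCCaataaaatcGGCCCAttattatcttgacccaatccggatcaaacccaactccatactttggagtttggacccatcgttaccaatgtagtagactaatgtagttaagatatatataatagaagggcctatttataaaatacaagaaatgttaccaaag
FIB2: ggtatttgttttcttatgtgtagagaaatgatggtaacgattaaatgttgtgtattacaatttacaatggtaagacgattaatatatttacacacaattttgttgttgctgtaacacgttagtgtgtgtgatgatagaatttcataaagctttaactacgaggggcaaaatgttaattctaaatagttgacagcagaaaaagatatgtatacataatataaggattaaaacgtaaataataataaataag
FIB1 has a telo box 207 bases before the start and site II letters 163 and 148 bases before it, and a further telo box at position 4 after the start. FIB2 has a telo box at position 25 after the start. Both fibrillarin genes carry a small nucleolar RNA gene inside an intron. U60.1F, within FIB1, was at 29.9 FPKM in wild type and 17.6 FPKM in hdt1, from 24 and 15 reads, 1.70-fold lower (0.855 to 3.48). U60.2F, within FIB2, was at 6.30 and 4.75 FPKM from 10 and 8 reads, 1.33-fold lower (0.472 to 3.87). Neither small RNA differed between the libraries beyond counting error, and the libraries were selected for cDNA length, so the level of such short RNAs is uncertain.

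NOP56 and NOP58 form the scaffold that holds fibrillarin on the guide RNA. NOP58-1 (AT5G27120) was at 57.2 FPKM in wild type and 38.3 FPKM in hdt1, 1.49-fold lower (1.40 to 1.59). NOP58-2 (AT3G05060) was at 39.1 and 35.7 FPKM, 1.10-fold lower (1.02 to 1.17). NOP58 copies were thus closer in level in hdt1, and NOP58-1 made up 59.4% of the pair in wild type and 51.8% in hdt1. The ratio of NOP58-1, hdt1 over wild type, was 0.734 times the ratio of NOP58-2 (0.668 to 0.806). NOP56-1 (AT1G56110) was at 73.1 FPKM in wild type and 60.9 FPKM in hdt1, 1.2-fold lower (1.14 to 1.27), and its log2 ratio of -0.26 fell just short of the 1.2-fold limit after adding 1 FPKM. NOP56-2 (AT3G12860) was at 5.44 and 5.53 FPKM, a ratio of 1.02 (0.830 to 1.24). The NOP56 copies did not differ beyond counting error, since the ratio of NOP56-1, hdt1 over wild type, was 0.820 times the ratio of NOP56-2 (0.665 to 1.01).

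All 3 box H/ACA proteins were lower in hdt1, with a summed level of 323 FPKM in wild type and 244 FPKM in hdt1, 1.32-fold lower. GAR1 (AT3G03920), a small subunit of the particle, was at 169 FPKM in wild type and 117 FPKM in hdt1, 1.45-fold lower (1.37 to 1.53). NHP2 (AT5G08180), which binds the guide RNA in yeast, was at 92.5 and 74.7 FPKM, 1.24-fold lower (1.16 to 1.33). CBF5 (AT3G57150), the pseudouridine synthase, which the annotation names NAP57, was 1.16-fold lower (1.10 to 1.23), from 61.5 FPKM in wild type to 52.9 FPKM in hdt1. GAR1 thus differed most, while the intervals of NHP2 and CBF5 overlap. After removal of the length trend described below, the log2 ratios were -0.36 for GAR1, -0.23 for CBF5 and -0.18 for NHP2. NHP2 hosts 3 small nucleolar RNA genes in its introns that have no row in the table. Over both classes of particle, 8 of 9 protein genes were below 0, against 54.0% of all loci, and 5 were at least 1.2-fold lower, against 18.7%.

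Of the 7 small-subunit factors 6 were lower in hdt1, against 54.0% of all loci. On the values as deposited each of these 6 had an interval wholly on the lower side, against 29.1% of all loci. Their summed level with RRP5 was 136 FPKM in wild type and 109 FPKM in hdt1, 1.25-fold lower, and the median log2 ratio was -0.24. SWA1 (AT2G47990), a WD40 protein of small-subunit rRNA processing known from slow female gametophyte development, was at 14.6 FPKM in wild type and 8.97 FPKM in hdt1. It was 1.63-fold lower (1.42 to 1.86). In the annotation SWA1 overlaps 2 genes on the opposite strand. AT2G09975 overlaps it by 556 bases and has no row in the table, and AT2G47980 overlaps it by 112 bases and was at 20.7 FPKM in wild type and 24.7 FPKM in hdt1. No source used here says whether counting used the strand, so reads of SWA1 and its partners may not be told apart. RID2 (AT5G57280), a methyltransferase-like protein named for defective root initiation, was at 27.1 and 19.3 FPKM, 1.40-fold lower (1.25 to 1.58).

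Smaller differences were measured for the remaining small-subunit factors. RRP7 (AT5G38720), a pre-rRNA processing factor, was at 22.4 FPKM in wild type and 18.0 FPKM in hdt1, 1.24-fold lower (1.10 to 1.41). NOB1 (AT5G41190), the endonuclease that trims the end of small-subunit rRNA, was at 17.8 and 14.9 FPKM, 1.2-fold lower (1.08 to 1.33), with a log2 ratio of -0.24 that also fell short of that limit. ENP1 (AT1G31660), the bystin-like protein, was at 31.2 and 26.2 FPKM, 1.19-fold lower (1.09 to 1.30). In yeast ENP1 travels with the precursor of the small subunit. TOZ (AT5G16750), a WD40 protein required in early embryos, was at 12.3 and 10.8 FPKM, 1.14-fold lower (1.03 to 1.26). These 4 intervals overlap, and the ratios of these genes were not compared directly with each other. RRP5 (AT3G11964), which in yeast takes part in the processing for both subunits, was at 10.5 and 10.7 FPKM, a ratio of 1.02 (0.947 to 1.10). RRP5 is the longest of the 35 genes.

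The large-subunit factors were closer to level, with a summed 257 FPKM in wild type and 239 FPKM in hdt1, 1.08-fold lower. Of the 10 compared, 8 were below 0, against 54.0% of all loci. At least 1.2-fold lower were 2, a share of 20% that is near the 18.7% of all loci. The median log2 ratio was -0.10. PES, BOP1 and WDR12 form the PeBoW complex, which is needed for processing of large-subunit rRNA. PES (AT5G14520) was at 39.2 FPKM in wild type and 35.2 FPKM in hdt1, 1.11-fold lower (1.04 to 1.19). BOP1 (AT2G40360) was at 43.6 and 42.1 FPKM, 1.03-fold lower (0.977 to 1.09), and WDR12 (AT5G15550) at 24.2 and 22.8 FPKM, 1.06-fold lower (0.963 to 1.17). The subunits of this complex had overlapping intervals, and on the values as deposited only that of PES lay wholly on the lower side. SWA2 (AT1G72440), a nucleolar protein that the annotation names EDA25, was at 10.9 and 10.6 FPKM, 1.02-fold lower (0.924 to 1.13). APUM24 (AT3G16810), a Pumilio RNA-binding protein of the nucleolus, had the lowest ratio in this group. It was at 16.0 FPKM in wild type and 11.9 FPKM in hdt1, 1.34-fold lower (1.21 to 1.50).

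The BRX1 genes, whose yeast counterpart assembles the large subunit, were the least expressed of the 35. BRX1-1 (AT3G15460) was at 0.416 FPKM in wild type and 0.463 FPKM in hdt1 from 11 and 13 reads, a ratio of 1.11 (0.460 to 2.74). BRX1-2 (AT1G52930) was at 1.24 and 1.05 FPKM from 30 and 27 reads, 1.18-fold lower (0.678 to 2.06). No difference was detectable at this depth for either gene. BRX1-1 overlaps AT3G15450 by 41 bases on the opposite strand, and that gene was at 117 FPKM in wild type and 613 FPKM in hdt1, and its part in the values of BRX1-1 was not tested.

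REIL1 and REIL2 encode zinc finger proteins related to yeast Rei1, a late cytoplasmic factor of the large subunit, and LSG1 proteins are GTPases of the same late stage. REIL1 (AT4G31420) was at 50.5 FPKM in wild type and 53.7 FPKM in hdt1, a ratio of 1.06 (0.995 to 1.14). REIL2 (AT2G24500), annotated as FZF, was at 44.6 and 34.7 FPKM, 1.29-fold lower (1.19 to 1.39). These copies stood near each other in wild type and further apart in hdt1, where REIL1 made up 60.8% of the pair compared with 53.1% in wild type. The ratio of REIL1, hdt1 over wild type, was 1.37 times the ratio of REIL2 (1.24 to 1.52). REIL2 shares 173 bases with AT2G24490 on the same strand, a gene at 1.2 FPKM in wild type and 1.82 FPKM in hdt1. LSG1-1 (AT2G27200) was at 12.3 and 13.3 FPKM, a ratio of 1.08 (0.957 to 1.22), and its log2 ratio of 0.10 was the highest of the 34. LSG1-2 (AT1G08410) was at 14.3 and 13.1 FPKM, 1.09-fold lower (0.981 to 1.22). At the edge of counting error, the ratio of LSG1-1, hdt1 over wild type, was 1.18 times the ratio of LSG1-2 (1.003 to 1.39).

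The pre-rRNA nucleases and their partners were near level between the libraries, at a summed 88.7 FPKM in wild type and 89.2 FPKM in hdt1. None of the 5 was at least 1.2-fold lower, against 18.7% of all loci. So few genes cannot be set apart from that share, and the median log2 ratio of the 5 was -0.01. Shares given for the other role groups also rest on few genes and were not tested. MTR4, XRN2, XRN3 and APUM23 have annotated exon lengths of 3000 bases or more, a class in which the median of all loci was 0.14. MTR4 (AT1G59760), the helicase that feeds RNA to the nuclear exosome, was at 15.3 and 15.8 FPKM, a ratio of 1.03 (0.948 to 1.12). XRN2 and XRN3 are exonucleases that digest RNA from the 5′ end. XRN2 (AT5G42540) was at 21.8 FPKM in wild type and 21.6 FPKM in hdt1, a ratio of 0.992 (0.927 to 1.06). XRN3 (AT1G75660) was at 30.3 and 32.2 FPKM, a ratio of 1.06 (1.005 to 1.13). XRN2 and XRN3 did not differ beyond counting error, since the ratio of XRN2, hdt1 over wild type, was 0.933 times the ratio of XRN3 (0.854 to 1.02). RTL2 (AT3G20420), an RNase III-like enzyme that cuts the pre-rRNA downstream of the mature rRNAs, was at 4.18 and 3.83 FPKM, 1.09-fold lower (0.835 to 1.42). APUM23 (AT1G72320), a Pumilio protein that acts in pre-rRNA processing, was at 17.1 and 15.8 FPKM, 1.08-fold lower (0.991 to 1.19). PRH75 (AT5G62190), a DEAD-box RNA helicase, was among the most abundant of the 35 genes at 167 FPKM in wild type and 150.1 FPKM in hdt1, 1.11-fold lower (1.08 to 1.15).

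Of the 8 pairs of related genes, 5 had folds that differed between the copies beyond counting error, namely NUC, FIB, NOP58, LSG1 and REIL. How often unrelated genes differ in this way was not counted. Among all loci the interval of a single fold lay wholly below 1 for 29.1% and wholly above 1 for 24.9%. In the nucleolin, fibrillarin and REIL pairs the copy with the lower wild-type level was the one with the lower ratio, and in the NOP58 and LSG1 pairs it was the copy with the higher level. No copy shares a stretch of 50 bases with its partner, and 31 of the 35 genes have no stretch of 50 bases in common with any other annotated transcript. An exon of another annotated gene overlaps 9 of the 35, and without these 23 of 26 compared factors were below 0.

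**Figure D3:**
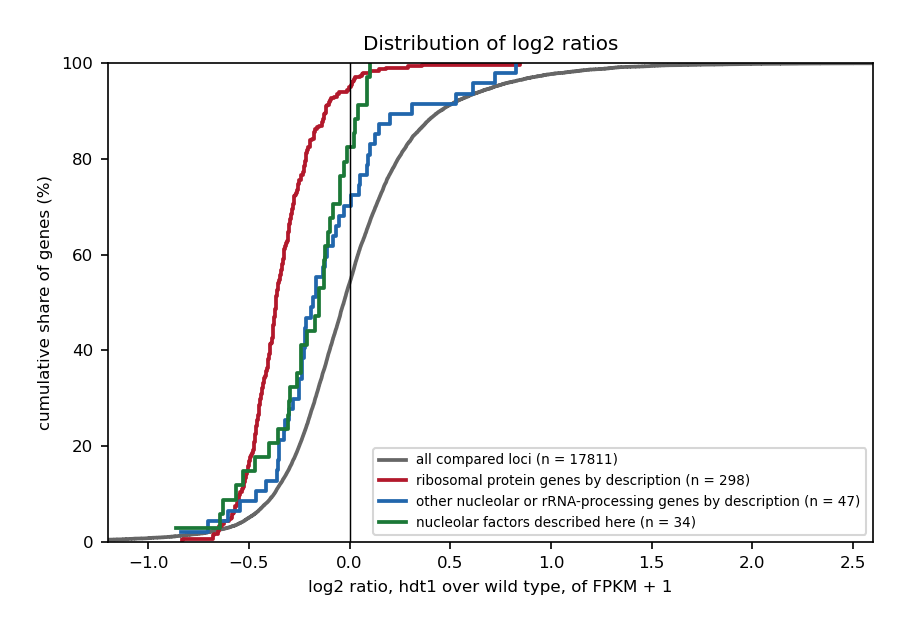
Cumulative share of genes (%) against the log2 ratio of hdt1 over wild type after adding 1 FPKM, for the 34 compared factors, ribosomal protein genes, other nucleolar or rRNA-processing genes by description, and all 17811 loci. At a ratio of 0 the curve of the 34 factors has reached 82.4% and that of all loci 54.0%.

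Other genes of the same pathway were described beside these. Of all loci 54.0% were below 0, 18.7% at least 1.2-fold lower and 18.5% at least 1.2-fold higher. The list of ribosomal protein genes was taken by description without organelle terms. It gave 283 of 298 compared below 0, with a median of -0.37, and 218 were at least 1.2-fold lower. The median of the 34 nucleolar factors, -0.15, lay between that of this list and that of all loci. With the trend of the ratio with gene length removed the medians were -0.21 for the ribosomal protein genes and -0.19 for the factors, so the gap between these lists nearly closed with that step. Of the ribosomal protein genes named by size of ratio, RPSAb was at 28.01 FPKM in wild type and 15.3 FPKM in hdt1, and AT5G16200, described as a 50S-like protein, was at 38.8 and 21.5 FPKM. AT5G24510, described as an acidic ribosomal protein, was higher in hdt1, at 1.70 and 3.86 FPKM. A further 56 genes named for the nucleolus or rRNA processing in their description gave 47 for comparison, of which 33 were below 0, 14 were at least 1.2-fold lower and 5 at least 1.2-fold higher, with a median of -0.18. Among them AT1G22230, described as a nucleolar GTP-binding protein, was at 3.79 FPKM in wild type and 1.68 FPKM in hdt1. AT2G21560 and AT5G06930, described as nucleolar-like proteins, were higher in hdt1, at 4.93 and 9.54 FPKM and at 3.02 and 5.63 FPKM. AT5G06940 overlaps AT5G06930 by 463 bases on the opposite strand. Of 4 subunits of RNA polymerase I, the large subunits NRPA1 (8.54 and 8.42 FPKM) and NRPA2 (12.9 and 13.0 FPKM) were near level. The smaller subunits shared with RNA polymerase III were lower in hdt1, NRPAC40 by 1.28-fold (1.11 to 1.47) and NRPAC19 by 1.26-fold (1.06 to 1.50). The log2 ratio moved with gene length over all loci, as described below, and the part of length in this contrast between subunits was not tested. On the opposite strand another gene overlaps NRPAC19 by 414 bases and NRPA2 by 108 bases, and on the same strand NRPA1 by 148 bases. The other HD2 genes were 1.22-fold (HDT2), 1.29-fold (HDT3) and 1.43-fold (HDT4) lower, and AT5G22660 overlaps HDT2 by 261 bases on the opposite strand. The 7 reference genes had a median log2 ratio of -0.02 but were not all level. UBQ10 was 1.30-fold higher in hdt1 (1.28 to 1.32), EF1A 1.11-fold lower (1.10 to 1.13), and SAND had a ratio of 1.12 (0.994 to 1.26).

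The log2 ratio moved with gene length over the whole table, and the factors followed the same course. Across all loci the median was -0.18 for annotated exon lengths under 1000 bases, -0.12 from 1000 bases, -0.05 from 1500 bases, 0.02 from 2000 bases and 0.14 from 3000 bases. The factors lay below these medians in each class, at -0.53 (1 gene), -0.30 (6 genes), -0.25 (8 genes), -0.15 (12 genes) and -0.01 (7 genes). Spearman's rho of the log2 ratio with length was 0.48 across the 34 factors and 0.30 across 17655 loci, as a description over genes that share both libraries. With the trend of all loci removed, 29 of the 34 factors were below 0, against 49.9% of all loci, and 8 were at least 1.2-fold lower, against 12.3% of all loci. Their median was -0.19 against 0.00 for all. NUC2 stood at -0.88, SWA1 at -0.56, FIB2 at -0.52 and GAR1 at -0.36 after this step, and RRP5 moved from 0.03 to -0.21. MTR4 and XRN3 also moved below 0, while BRX1-2 moved above it, and RTL2 came to lie at 0.

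**Figure D4:**
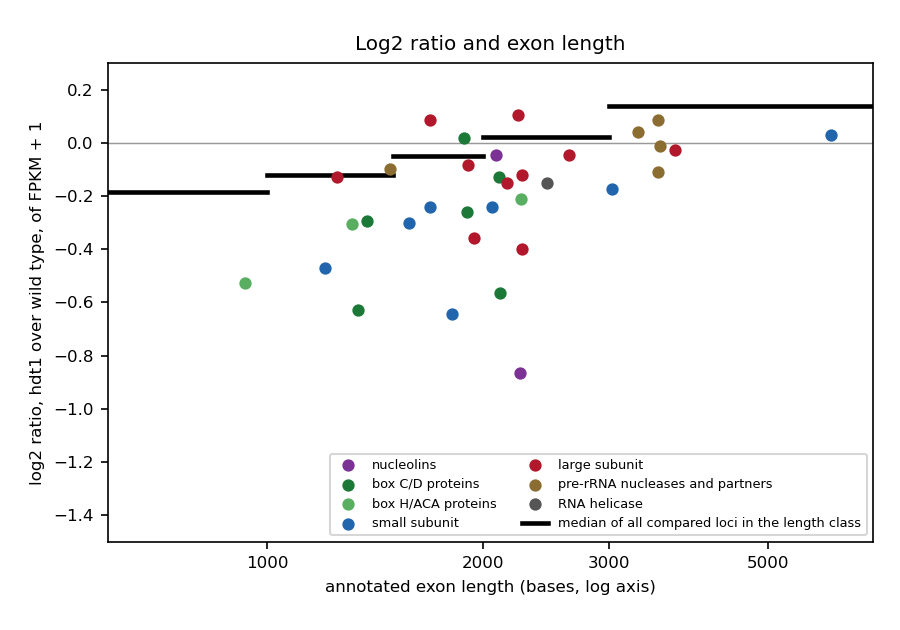
Log2 ratio of hdt1 over wild type after adding 1 FPKM against annotated exon length (bases, log axis), with a point for each of the 34 compared factors coloured by role and a bar for the median of all loci in each length class. The bars climb from -0.18 to 0.14, and most points lie below the bar of their class.

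Telo boxes and site II elements are short sequences known from promoters of plant genes for ribosomal proteins and nucleolar proteins. In the 250 bases before the annotated start, 21 of the 35 factors (60.0%) held site II letters, against 23.3% of 17189 promoters of compared protein-coding genes and 57.4% of 298 ribosomal protein genes. A telo box lay there in 6 of 35 (17.1%), against 3.63% of all promoters and 14.1% of ribosomal protein genes. These 6 are shown as stretches of 28 bases on the strand of the gene in TAIR10.1, to let the letters around the box be compared, with the box in capitals. FIB1 is at chr5:21293930-21293957 (plus), NOP56-1 at chr1:20986952-20986979 (minus), NOP58-1 at chr5:9540807-9540834 (plus), BOP1 at chr2:16856790-16856817 (minus), REIL2 at chr2:10403077-10403104 (minus) and RTL2 at chr3:7121113-7121140 (minus).
FIB1: cacaaaaataAAACCCTAacttatcttt
NOP56-1: taaacccctgAAACCCTAgtttcgttcg
NOP58-1: atgcgttttaAAACCCTAggttacaaaa
BOP1: ccattatctaAAACCCTAaatctcttgt
REIL2: gtataaaaatTAGGGTTTtcgttacaat
RTL2: atctcagcttTAGGGTTTaggcaatttt
In REIL2 and RTL2 the box lies on the opposite strand, as TAGGGTTT. The start of the box lies between 207 bases (FIB1) and 17 bases (NOP56-1) before the annotated start.

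Extension of the window to 50 bases after the start, chosen after the data were seen, found a telo box in 19 of 35 factors (54.3%), against 5.64% of all promoters and 36.6% of ribosomal protein genes. The box begins within those 50 bases in 14 factors. Site II letters were then in 25 of 35 (71.4%), against 26.6% of all promoters and 65.1% of ribosomal protein genes. At least 1 of the motifs was in 29 of 35 factors (82.9%), against 29.7% of all promoters and 72.8% of ribosomal protein genes. Across all compared genes the median log2 ratio was -0.15 with a telo box in the wider window (73.0% below 0) and -0.02 without (52.7%). Among the factors it was -0.19 with the box (16 of 18 below 0) and -0.12 without (12 of 16 below 0). At least 1.2-fold lower were 6 of the 18 with the box and 5 of the 16 without, against 18.7% of all loci. Single factors went both ways. NUC2, SWA1, FIB2 and NOP58-1, which had the lowest log2 ratios of the factors, each have a box in the wider window. NUC1 has 2 boxes there and was nearly level, while GAR1 and RID2 have none there and were 1.45-fold and 1.40-fold lower. For site II in this window the median of the factors was -0.14 with a match and -0.23 without.

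**Figure D5:**
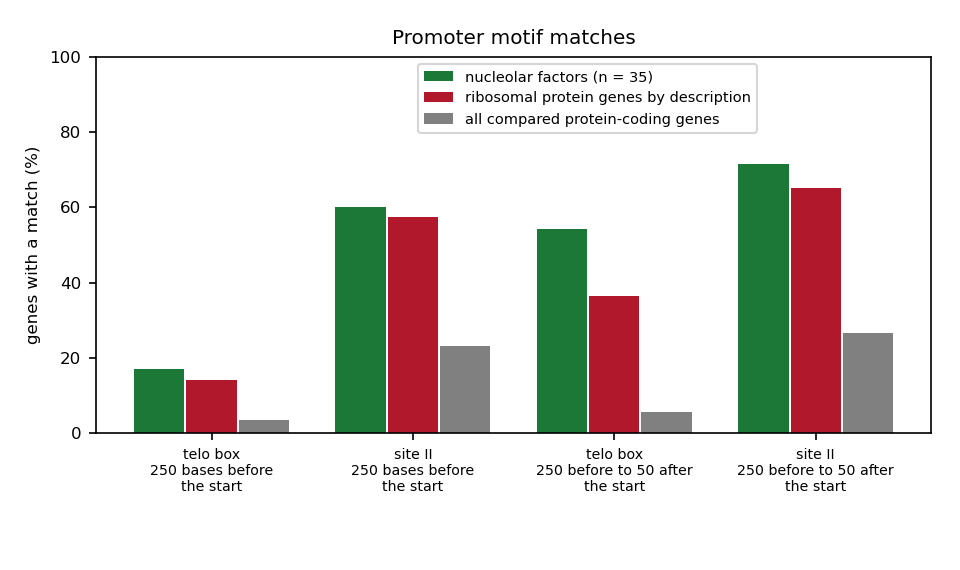
Share of genes (%) with a telo box or site II match, for the 35 factors, ribosomal protein genes and all compared protein-coding genes, in the 250 bases before the annotated start and in the window that adds 50 bases after it. The factors stand at 54.3% and all genes at 5.64% for the telo box in the wider window.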

How the data were processed

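Total RNA of the main stem was sequenced in 1 library per genotype (wild type and hdt1), grouped by genotype per the labels. FPKM values of both libraries were deposited in 1 table of 33669 features. Per the submitters' processing notes, the tools were TopHat2 2.0.12, Bowtie2 2.2.3 and HTSeq 0.6.1. Genome build, annotation and strand setting: not given in the sources used here. The 67 features without a locus identifier were left out. Names, lengths, overlaps and promoter sequences came by locus from the RefSeq annotation of TAIR10.1, which holds 32835 of the 33602 loci and all 35 factors.

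FPKM is whole reads scaled by length and total. Low values lie on whole multiples of what 1 read is worth, which gave the totals. For each gene the smallest whole read pair whose implied length lies between the coding length and the exon length plus 2% was used, and recovered reads sum to 98.6% (wild type) and 98.7% (hdt1) of the totals. RRP5 alone of the 35 had no such length (5691 bases implied, 5763 coding), and its reads are the smallest whole pair. The step was tested on simulated data. Intervals of a fold are exact conditional (Clopper-Pearson) 95% intervals. Those of the ratio between the folds of paired copies are conditional 95% intervals of the odds ratio of their reads. Neither kind takes account of PCR copies, so they cover counting error alone.

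Log2 ratios used a pseudocount of 1 FPKM and loci with a mean of at least 1 FPKM (17811). No test between genotypes was made. Identity of copies was taken from aligned coding sequences, and promoter stretches were searched on both strands. Every factor could be named. Named in full were both copies of each pair and the highest and lowest factor of each role, besides the HD2 genes and up to 3 genes of each other list that were compared and had the ratios farthest from level, while the secondary-wall genes are given by name and sum. The factors and lists were chosen with earlier results of these data known. Alternatives were other pseudocounts (0.1 and 5), filters (none, and a mean of at least 5), scalings, removal of length or GC trends, and subsets of the factors. Python 3.11.15, numpy 2.4.6, pandas 2.3.3, scipy 1.17.1, biopython 1.88 and matplotlib 3.10.9 were used.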

Additional observations from a re-analysis of the deposited data

How the results depend on the processing

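No paired analysis was possible because each genotype has 1 library, and for the same reason no library could be left out. Over the alternatives run, the count of factors below 0 was 23 to 29, 8 to 11 were at least 1.2-fold lower, no factor reached 1.2-fold higher, and the median of the log2 ratios lay between -0.09 and -0.19. The count of 23 comes from subsets of 26 factors (without those that overlap another gene) and 27 factors (1 copy of each pair). With a pseudocount of 0.1 FPKM, 1 factor, NUC2, was past 2-fold. The median of the ribosomal protein genes was -0.21 with the length trend removed. The fold of NUC1 in hdt1 over wild type turned from 0.968 to 1.011 with equal FPKM sums and to 1.005 when centred on genes of at least 10 FPKM, so its direction depends on the scaling. The telo box count of 19 in the wider promoter window compares with 6 in the window before the start. Depth limits BRX1-1, BRX1-2, RTL2 and NOP56-2, whose intervals are the widest of those that include 1.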
